A study of Mus musculus with 25 samples.

Results

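The genes of the AP-1 family were examined for the accessibility of the chromatin around them in fetus/graft-specific CD8+ T cells (T_FGS), across all 7 groups of an ATAC-seq experiment, an assay in which a transposase cuts open chromatin. Members were the peaks whose midpoint had Jun, Junb, Jund, Fos, Fosb, Fosl2, Batf, Batf3, Bach1 or Atf3 as the nearest protein-coding gene start, or lay within that gene. There were 29 such peaks among 13527, and they fell to 8 of the 10 genes: 5 each to Fos and Bach1, 4 each to Atf3 and Fosb, 3 each to Jun, Fosl2 and Batf, and 2 to Junb. No peak fell to Jund or Batf3. A peak is named here by its gene and the signed distance in bp of its midpoint from the gene start, negative upstream. Nearness to a gene start does not show that a peak acts on that gene.

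The cells came from spleen and lymph nodes of young adult female C57BL/6 mice and were sorted as CD8+ T cells binding a tetramer of the OVA peptide on the class I molecule Kb. The antigen was that of 2W-OVA.BALB/c mice, the strain that gave the skin grafts and fathered the pregnancies, so the same transgenic antigen marked the graft and the fetus and other alloreactive cells were not sampled. Naive mice had neither a graft nor a pregnancy (3 libraries), and Sensitized mice had rejected a skin graft and were not mated (4 libraries). N+P mice were mated without a graft, S+P mice after rejecting one, and both were taken just after birth. The sorted subsets were PD1- cells (N+P C1, 3 libraries, and S+P C4, 4 libraries), PD1+CD73+ cells (N+P C5, 3 libraries, and S+P C5, 4 libraries) and PD1+CD73- cells (S+P C7, 4 libraries). CD73 is an ectoenzyme and PD1 an inhibitory receptor. No group of N+P cells was PD1+CD73-, so C7 had no counterpart from mice without a graft. The labels of Naive and Sensitized name no PD1 or CD73 subset. In C5 or C7 against them, pregnancy and selection by marker cannot be told apart. Nor can time after the graft, which may differ between S+P and Sensitized mice.

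AP-1 is a dimer of basic leucine zipper proteins. JUN proteins pair with each other or with FOS proteins, BATF proteins pair with JUN proteins, and the dimers bind short palindromic sites in promoters and enhancers. In CD8+ T cells AP-1 forms downstream of the T cell receptor and CD28 through MAP kinases, and it acts with NFAT on effector genes, whereas NFAT without AP-1 is known to favour programs of exhaustion. BATF binds with JUN proteins and IRF4, and BACH1, which pairs with small MAF proteins, represses genes through sites that resemble those of AP-1.

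The sequences below are from the mouse genome GRCm39, written 5′ to 3′ on the strand of the gene, with sites in capitals. The first 5 lines show 200 bases from a closing peak of Bach1, from the Bach1 promoter peak with a pair of sites, and from 3 opening peaks, since these peaks carry the differences described further on. The last 2 lines show the promoter sites of Fos and Fosb, the immediate-early members. Capitals mark TGANTCA, the AP-1 site, in the Bach1, Fosb -11610 and Batf lines, and the CArG box, the core of the serum response element, in the last 2. The Fosl2 line, the middle of its peak, holds none of the strings searched.
Bach1 +27450, chr16:87523310-87523509, plus strand: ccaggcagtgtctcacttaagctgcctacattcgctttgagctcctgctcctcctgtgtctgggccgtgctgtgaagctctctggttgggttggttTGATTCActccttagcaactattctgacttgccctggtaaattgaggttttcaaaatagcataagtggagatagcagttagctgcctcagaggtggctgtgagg
Bach1 +600, chr16:87496826-87497025, plus strand: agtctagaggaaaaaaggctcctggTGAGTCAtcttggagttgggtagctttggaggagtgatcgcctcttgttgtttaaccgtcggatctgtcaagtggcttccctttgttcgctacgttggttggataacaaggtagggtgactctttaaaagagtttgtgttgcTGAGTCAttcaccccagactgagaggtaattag
Fosl2 +13360, chr5:32305967-32306166, plus strand: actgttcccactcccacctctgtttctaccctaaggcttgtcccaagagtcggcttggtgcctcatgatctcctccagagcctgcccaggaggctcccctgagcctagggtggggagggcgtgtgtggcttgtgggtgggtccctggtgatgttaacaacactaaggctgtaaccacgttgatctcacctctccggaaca
Fosb -11610, chr7:19055501-19055700, minus strand: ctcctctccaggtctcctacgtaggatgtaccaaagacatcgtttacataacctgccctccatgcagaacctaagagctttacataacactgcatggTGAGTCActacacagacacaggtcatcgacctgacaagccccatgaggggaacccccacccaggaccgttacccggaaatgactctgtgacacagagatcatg
Batf -25540, chr12:85707840-85708039, plus strand: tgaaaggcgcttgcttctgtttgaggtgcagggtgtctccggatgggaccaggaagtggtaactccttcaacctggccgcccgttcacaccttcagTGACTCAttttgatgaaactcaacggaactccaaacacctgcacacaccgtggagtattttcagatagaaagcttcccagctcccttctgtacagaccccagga
Fos +2366, chr12:85520260-85520459, plus strand: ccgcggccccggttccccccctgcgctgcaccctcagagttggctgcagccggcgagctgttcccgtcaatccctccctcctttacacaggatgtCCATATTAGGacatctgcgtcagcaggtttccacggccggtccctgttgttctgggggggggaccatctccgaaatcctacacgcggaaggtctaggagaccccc
Fosb -213, chr7:19044138-19044337, minus strand: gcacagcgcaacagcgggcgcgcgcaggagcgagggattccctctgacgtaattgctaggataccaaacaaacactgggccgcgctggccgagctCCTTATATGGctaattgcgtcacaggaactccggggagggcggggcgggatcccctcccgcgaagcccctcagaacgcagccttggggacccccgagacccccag
The CArG box of Fos lay 298 bp upstream of the gene start and that of Fosb 262 bp upstream. The Bach1 promoter peak held 4 copies of TGAGTCA, which lay 108, 628, 1072 and 1214 bp downstream of the Bach1 start.

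On both strands, TGANTCA was found in 11 of the 29 peaks and in 25.7% of all peaks, and the CArG box in 4 of the 29 and 4.65% of all peaks. GAAANTGA, an interferon element beside a part of an AP-1 site, was in 9 of the 29 peaks against 20.3% of all. TGACGTCA, the site preferred by ATF and CREB dimers, was in none of the 29 and in 4.79% of all peaks. The strings cannot overlap one another over their whole length, but GAAANTGA shares its last letters with an AP-1 site that may follow it. Longer peaks hold more matches: among peaks within 10% of the length of the Bach1 promoter peak, 41.1% held TGANTCA, and among those like Fosb -213 in length, 3.15% held a CArG box. A match is a description of the letters in a window and not evidence of binding.

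Total counts in peaks ranged from 2430890 to 25419715 per library. Of them, 64.4 to 70.0% lay in peaks with their midpoint within 1000 bp of a protein-coding transcript start. By Pearson correlation over all peaks, on the scale log2(normalized count + 1), 10 of the 25 libraries lay nearer to another group's mean than to that of their own group. Among them, Sensitized replicates 3 and 4 lay closest to N+P C5 (r = 0.973 and 0.955, against 0.918 and 0.937 with their own group), and Sensitized replicate 1 to S+P C4. S+P C4 replicate 1, the shallowest library, was also nearest to N+P C5, and Naive replicate 3 to N+P C1. The labels give no reason for this, and the paper reports variability within its Sensitized ATAC-seq samples without naming a source. Whether Sensitized replicates 3 and 4 carry the right label was not tested, so every value against Sensitized depends on whether those labels are right. The counts of calls against Sensitized, and the values of single peaks against it, are therefore also given without these 2 libraries, an alternative chosen after seeing the data that leaves 2 Sensitized libraries. Of the CD8 T cell markers, Cd3d, Cd3e, Cd3g, Cd8a and Lck had peaks (16 in all), which were open in every library with summed normalized counts from 5182 to 9519. These sums did not overlap between N+P C5 (5468 to 5529.8) and S+P C5 (6776 to 8343), being higher in S+P C5. They were also higher in Naive (5686 to 7336) than in N+P C5 and N+P C1 (5182 to 5643), without overlap. The part of these sums in the differences between those groups was not tested. Of the 15 markers of other cell types only Cd4, Foxp3 and Itgax had a peak (4 in all), and their summed counts, 1186 to 1578 over all libraries, overlapped between all pairs of groups other than Sensitized (1186 to 1364) and N+P C5 (1382 to 1409).

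**Figure D1:**
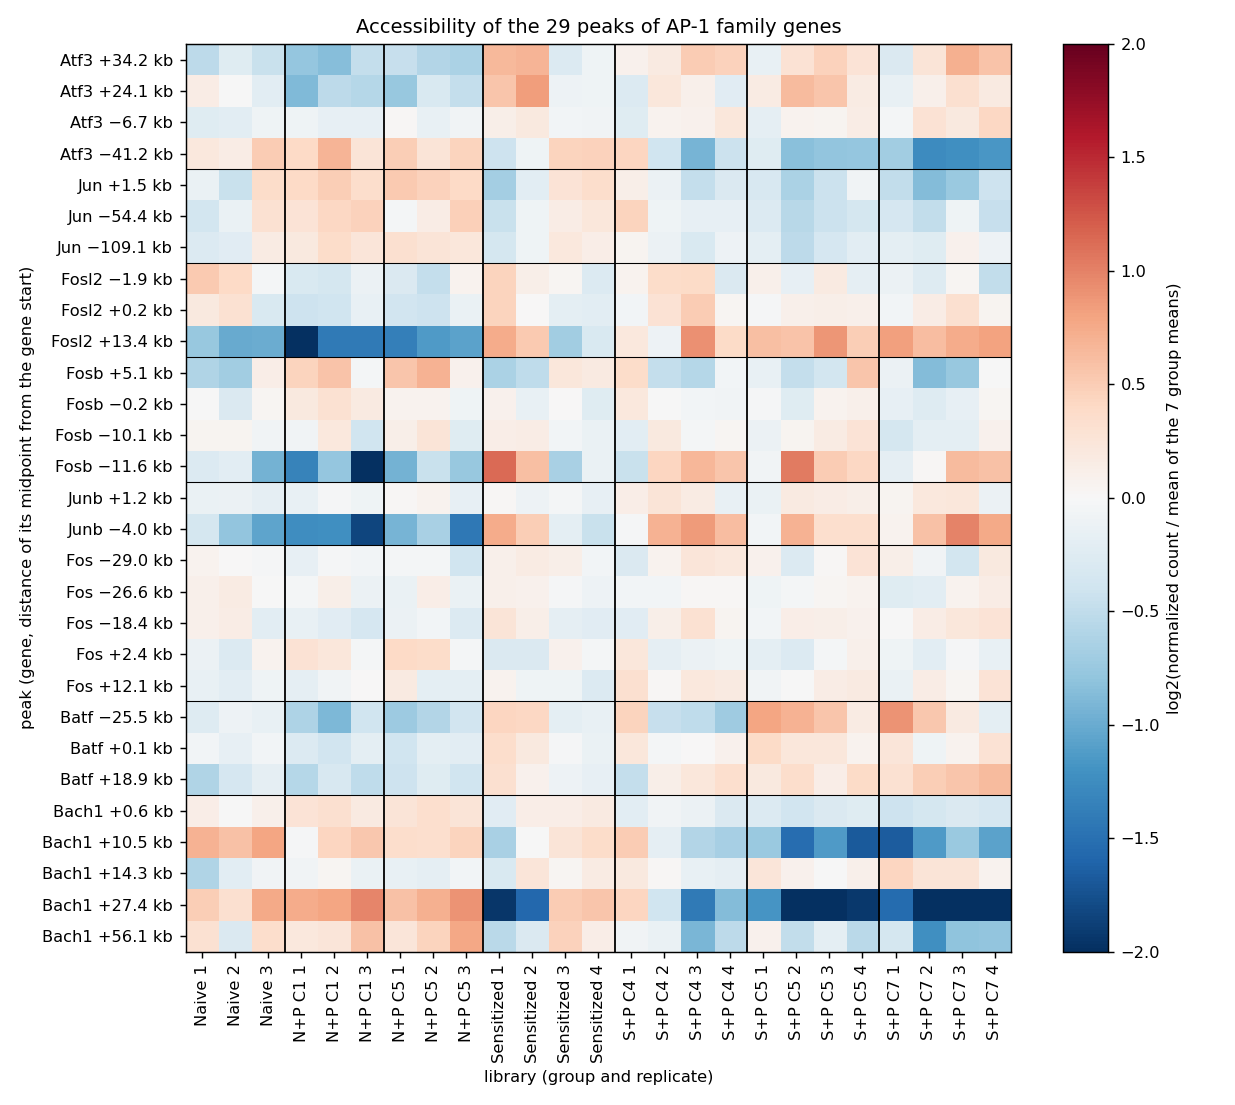
Rows are the 29 peaks by gene and distance from the gene start in kb, columns are the 25 libraries by group, and colour is log2 of a peak's normalized count over the mean of its 7 group means, limited to -2 and 2. Bach1 +27450 ranged furthest, 9.74-fold between its highest and lowest group mean, and the columns of Sensitized replicates 3 and 4 differ from those of replicates 1 and 2.

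By annotation of the midpoint 14 of the 29 peaks lay between genes, 6 in introns, 5 in promoters and 4 were centred on exons. A peak counts as a promoter peak if its midpoint is within 1000 bp of a protein-coding transcript start. The 4 centred on exons were the broad peaks that covered Jun, Junb, Fos and Fosb, with lengths of 6714, 6776, 5951 and 9258 bp. The median peak of the series was 963 bp long, and 23 of all peaks were over 5900 bp, these 4 among them. JUN, JUNB, FOS and FOSB are immediate-early gene products, made from short genes within minutes of T cell stimulation. The interval over Jun was in the peak lists of all 7 groups, while that over Fosb was only in the list of N+P C5, with a q-value of 0.911, so the full extent of the latter rests on a single weak list entry. The lists held 7 of the 29 peaks for S+P C4 and up to 20 for S+P C5, against 27.0% and 82.9% of all peaks in those lists. Each list pools the libraries of a group, so it carries no replicate error.

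Of the 11 comparisons, the one with the most calls set the PD1+CD73+ cells of mice with an earlier graft against those of mice without one, S+P C5 vs. N+P C5 (the C5 comparison). There 7 of the 29 peaks passed the call threshold of DESeq2, which asks for a log2 fold change beyond 0.9 in either direction and an adjusted p below 0.1, beside 17.2% of all peaks. In S+P C5, 4 peaks opened, at Fosl2, Junb, Fosb and Batf (all peaks 10.3%), and 3 closed, at Bach1 (2 peaks) and Atf3 (all peaks 6.97%). All 7 lay outside promoters by midpoint: of the 24 such member peaks 7 were called, beside 35.4% of such peaks in the series. Of the 5 promoter member peaks none was called, beside 3.36%. The 24 include the broad peaks over Jun, Junb and Fos, which cover their gene starts but are centred further in. Without the fold threshold, 9 member peaks were higher and 9 lower at an adjusted p under 0.1, which is 62.1% of the members and 63.8% of all peaks. The median log2 fold change was 0.10 over the 29 peaks and 0.0046 over all peaks. The members' share was below that of the series among peaks outside promoters and without the fold threshold, but above it over all member peaks with that threshold. This difference was not tested, and what follows is a description of single peaks. S+P C5 and N+P C5 libraries did not overlap, in either direction, at 18 of the 29 peaks, beside 62.9% of all peaks. The same held for 4 member peaks in Sensitized vs. Naive (22.7% of all peaks), 2 in S+P C5 vs. Sensitized (14.7%) and 3 in S+P C7 vs. Sensitized (25.5%). In bulk samples such as these, a smaller share of cells open at a site cannot be told apart from less accessibility in each cell.

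**Figure D2:**
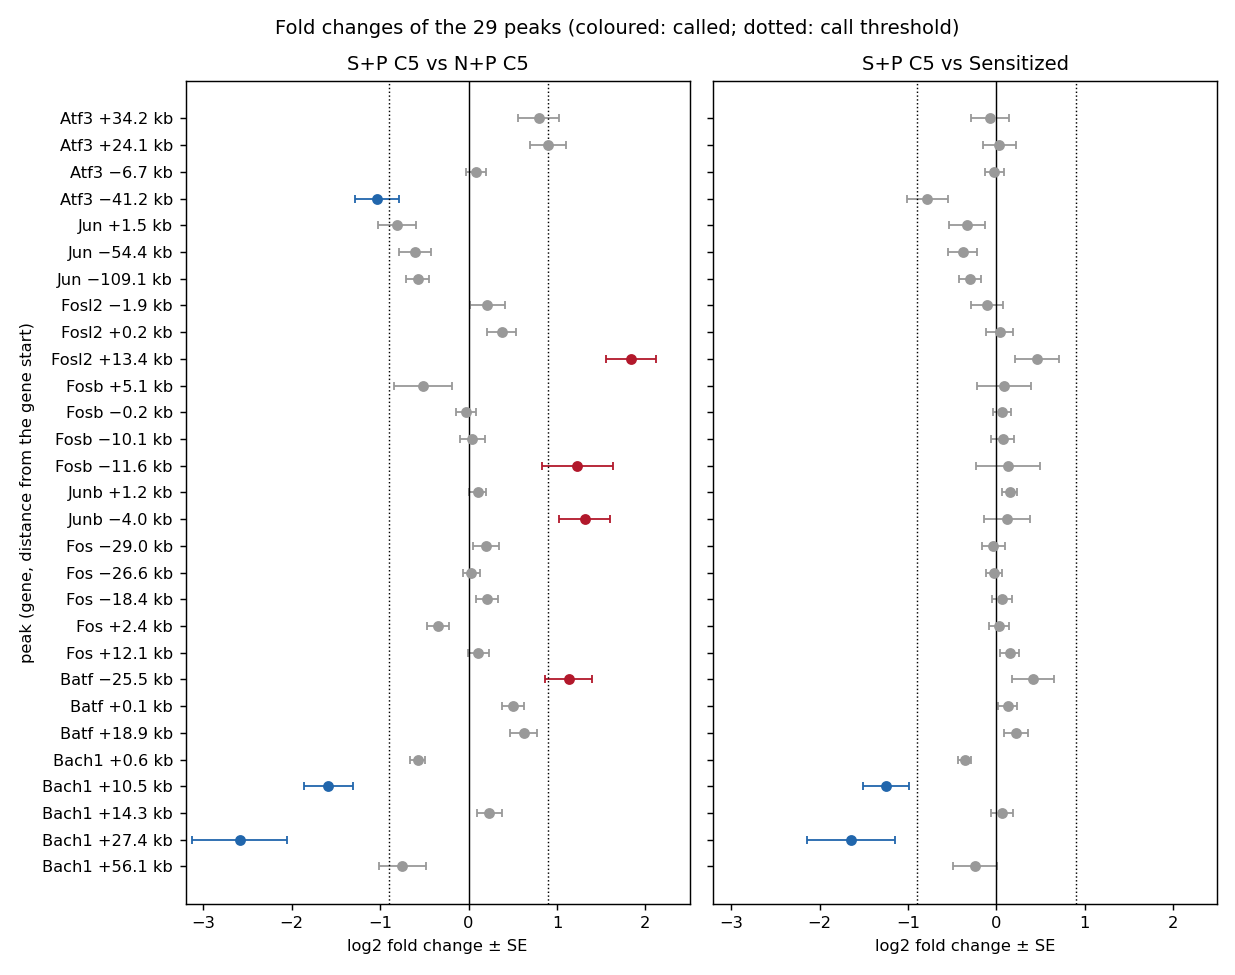
Log2 fold change with its SE (DESeq2) of each of the 29 peaks for S+P C5 against N+P C5 (left) and S+P C5 vs. Sensitized (right), with called peaks in red (opening) or blue (closing), others in grey and dotted lines at -0.9 and 0.9. On the left 4 peaks are red and 3 blue, and on the right 2 are blue, both at Bach1.

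Sensitization itself was addressed by Sensitized vs. Naive. Here 2 of the 29 peaks opened, Fosl2 +13360 and Junb -4043, and none closed, beside 8.62% of all peaks called and 7.22% opening. The median log2 fold change was 0.059 over the 29 peaks and -0.014 over all peaks. Without Sensitized replicates 3 and 4 there were 6 calls, beside 15.2% of all peaks in that fit: Atf3 +34222, Fosl2 +13360, Fosb -11610 and Junb -4043 opened, and Bach1 +10496 and Bach1 +27450 closed.

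Pregnancy in mice without a graft gave no call at the member peaks. In N+P C1 vs. Naive none of the 29 was called by DESeq2 or by edgeR, beside 0.0205% of the 4873 peaks with an adjusted p, and 10 had an unadjusted p under 0.05, as did 19.0% of all peaks. In this comparison the independent filter of DESeq2 left an adjusted p for 12 of the 29. For N+P C5 vs. Naive the count was 0 by both tools, beside 0.0262% of the 3824 peaks with an adjusted p, which included 10 of the 29. Here 8 member peaks and 17.5% of all peaks had an unadjusted p under 0.05. The median log2 fold change was -0.077 over the 29 peaks and -0.02 over all peaks for C1, and 0.048 over the 29 peaks and 1.6e-04 over all peaks for C5. Without Naive replicate 3, Fosb +5077 and Fosb -11610 were called in N+P C1 vs. Naive and Fosb +5077 in N+P C5 vs. Naive, beside 1.23% and 1.16% of the peaks with an adjusted p in those fits. Between the 2 subsets, N+P C5 vs. N+P C1, none of the 29 was called by either tool, beside 0.0% of all peaks, and none had an unadjusted p under 0.05, against 2.28% of all peaks.

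Pregnancy after a graft was compared with Sensitized in each subset. In S+P C5 vs. Sensitized both Bach1 +10496 and Bach1 +27450 closed and no member peak opened, beside 6.74% of all peaks called and 3.67% closing. In S+P C7 vs. Sensitized the same 2 peaks and Atf3 -41234 closed, beside 11.9% called and 8.03% closing. Both comparisons use the same 4 Sensitized libraries. Without Sensitized replicates 3 and 4, only Bach1 +10496 in S+P C5 was still called, and none in S+P C7, beside 3.25% and 6.96% of all peaks. In S+P C4 vs. Sensitized no member peak was called by DESeq2 or edgeR, beside 0.858% of all peaks, and 4 had an unadjusted p under 0.05, as did 18.7% of all peaks. Without Sensitized replicates 3 and 4, Bach1 +27450 was higher in S+P C4 (1.34 with an adjusted p of 0.0757), beside 2.31% of all peaks called. The median log2 fold change was -4.4e-04 over the 29 peaks and -0.017 over all peaks for C4, 0.034 over the 29 peaks and -0.0063 over all peaks for C5, and -0.066 over the 29 peaks and 0.0027 over all peaks for C7.

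Among the subsets of S+P mice, both Bach1 peaks were lower in S+P C5 than in S+P C4 and no other member peak was called, beside 5.12% of all peaks called and 2.0% closing. Without S+P C4 replicate 1 neither Bach1 call held, while Batf -25540 was called as higher in S+P C5, beside 4.01% of all peaks called. In S+P C7 vs. S+P C5, the comparison by CD73, none of the 29 was called by DESeq2 or edgeR, beside 2.38% of all peaks, and 2 had an unadjusted p under 0.05, as did 18.4% of all peaks. The interaction asked whether the difference between C5 cells and those of unmated mice, which includes selection by PD1 and CD73, depended on a graft. It was S+P C5 vs. Sensitized minus N+P C5 vs. Naive. Both Bach1 peaks were called there, both lower, beside 5.97% of all peaks called and 2.93% lower. Neither was called at an adjusted p under 0.05, nor without Sensitized replicates 3 and 4, where 2.36% of all peaks were.

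Jun encodes the founding JUN subunit, which activates most strongly as a dimer with FOS. Its broad peak at chr4:94935579-94942292 had normalized counts of 6663, 6357 and 6135 in N+P C5 and 3725, 3002, 3446 and 4432 in S+P C5. The groups did not overlap, all S+P C5 libraries being lower, but the change lay inside the fold threshold (log2 fold change -0.81, SE 0.22, adjusted p = 0.000725). Naive libraries gave 4227, 3396 and 5959, from the range of S+P C5 to just under that of N+P C5. Sensitized libraries gave 2885, 4026, 5589.9 and 5906, and S+P C7 libraries 3306, 2555, 2777 and 3485. Replicates 2, 3 and 4 of Sensitized were within the range of Naive and replicate 1 was below it. In the interaction, Jun +1523 had log2 fold change -0.83, SE 0.31, adjusted p = 0.0403, and it passed the fold threshold without Naive replicate 3, Sensitized replicate 1 or S+P C5 replicate 4. That value was -0.41 with an adjusted p of 0.397 without Sensitized replicates 3 and 4. The distal peaks Jun -54429 (log2 fold change -0.61, SE 0.18, adjusted p = 0.00269) and Jun -109081 (log2 fold change -0.58, SE 0.13, adjusted p = 6.26e-05) were also lower in the C5 comparison by less than the threshold.

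Junb encodes a JUN subunit that often pairs with BATF in T cells. The peak Junb -4043, at chr8:85709031-85709772, had counts of 270.0, 199 and 165 in Naive, 145, 147 and 96.1 in N+P C1 and 181, 219 and 127 in N+P C5. There were 577, 485, 299.8 and 251 for Sensitized, 337, 558, 619.6 and 527 for S+P C4, 332, 557, 431 and 433 for S+P C5 and 361, 514, 683 and 580.3 for S+P C7. Every library of an S+P group was above every Naive and N+P library, and Sensitized replicate 4 fell within the range of Naive. The peak opened in the C5 comparison (log2 fold change 1.31, SE 0.29, adjusted p = 3.44e-05) and in Sensitized vs. Naive (log2 fold change 0.94, SE 0.29, adjusted p = 0.00979). The latter call was lost without Sensitized replicate 1 (0.71, adjusted p = 0.0653) or replicate 2 (0.84, adjusted p = 0.0593), and without Naive replicate 2 (0.90, adjusted p = 0.059) or replicate 3 (0.78, adjusted p = 0.0592). It was 1.34 with an adjusted p of 3.41e-05 without Sensitized replicates 3 and 4. S+P C5 vs. Sensitized gave 0.12 on the log2 scale, with a 95% interval of -0.40 to 0.63, and -0.28 with an adjusted p of 0.619 without those replicates. The broad peak over Junb itself varied little, with group means of 4169.7 ± 97.1 in Naive (SD, n = 3), 4535 ± 377 in N+P C5 (n = 3) and 4869.8 ± 448 in S+P C5 (n = 4), and the C5 comparison gave 0.10 with an interval of -0.08 to 0.28.

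Fos encodes the FOS subunit, which cannot pair with itself and needs a JUN partner. Its broad peak at chr12:85520049-85525999 had counts of 2569.7, 2534 and 1903 in N+P C5 and 1703, 1619, 1911 and 2107 in S+P C5. The groups overlapped and the difference was small (log2 fold change -0.35, SE 0.13, adjusted p = 0.0148). None of the 4 other Fos peaks had an adjusted p under 0.1 in any comparison, with or without Sensitized replicates 3 and 4. Fos -26649 was the steadiest of the 29, with a 1.10-fold range between its highest and lowest group mean. Per kb it was among the most open peaks of the series, at 1053 normalized counts per kb averaged over groups, above 99.0% of all peaks.

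Fosb encodes a FOS subunit that is induced with Fos. The distal peak Fosb -11610, at chr7:19055388-19055783, had counts of 176, 184 and 109.8 in Naive, 84.1, 124 and 28.3 in N+P C1 and 109.7, 155 and 125 in N+P C5. There were 463, 322, 135 and 193 for Sensitized, 157, 284, 337 and 310.0 for S+P C4, 202, 436, 303 and 281 for S+P C5 and 187, 214, 329.7 and 319.7 for S+P C7. S+P C5 libraries were all above N+P C5 libraries, and the peak opened in that comparison (log2 fold change 1.23, SE 0.40, adjusted p = 0.00558). In Sensitized vs. Naive the groups overlapped and the peak was not called (log2 fold change 0.83, SE 0.40, adjusted p = 0.149), whereas without Sensitized replicates 3 and 4 the log2 fold change was 1.33 with an adjusted p of 0.00496. It was also called in that comparison without replicate 3 alone or replicate 4 alone. This short peak of 396 bp holds the TGAGTCA site printed above. The promoter peak Fosb -213, with the CArG box, stayed between 398 and 600.0 counts over all libraries (C5 comparison -0.03, 95% interval -0.25 to 0.19).

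The broad peak over the Fosb gene, Fosb +5077, varied within groups. There were 1769, 1652 and 2946 counts in Naive, 3635, 3976 and 2599.9 in N+P C1 and 3909, 4309 and 2841 in N+P C5, so Naive replicate 3 was above the other two Naive libraries. S+P C5 libraries gave 2420.3, 1919, 2071 and 3917, with replicate 4 at the level of N+P C5. With all libraries no comparison called it (log2 fold change -0.51, SE 0.33, adjusted p = 0.169 for the C5 comparison), and its SE was larger than those of the other broad peaks. Without Naive replicate 3 it was called in N+P C1 vs. Naive (0.99, adjusted p = 0.0526) and N+P C5 vs. Naive (1.11, adjusted p = 0.0313). It was also called in the interaction without Naive replicate 3 or without S+P C5 replicate 4. The remaining peak, Fosb -10057, had a log2 fold change of 0.04 in the C5 comparison with an interval of -0.24 to 0.32.

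**Figure D3:**
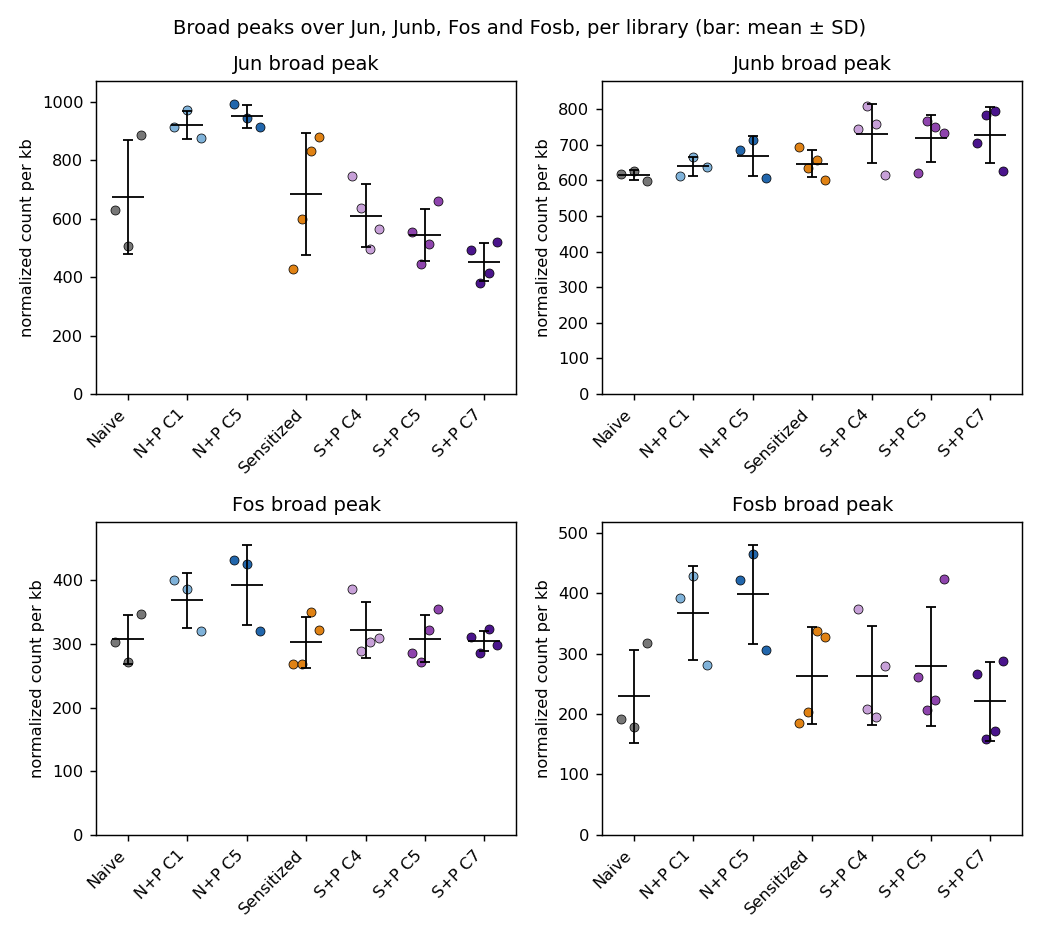
Normalized counts per kb of peak length in each library (points) with the group mean and SD (bars, n = 3 or 4) for the broad peaks over Jun, Junb, Fos and Fosb. Jun was highest in N+P C5, 951 ± 39.5 per kb, and lowest in S+P C7, 451 ± 65.1, while Junb stayed between 615 and 731 per kb in all 7 groups.

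Per kb of peak, the broad peaks over Jun and Junb were more open than those over Fos and Fosb in every group. In Naive the means were 674 ± 195 for Jun and 615 ± 14.3 for Junb (SD, n = 3), against 307 ± 37.9 for Fos and 229 ± 77.3 for Fosb. In S+P C7 they were 451 ± 65.1 for Jun, 728 ± 79.4 for Junb, 304 ± 16.1 for Fos and 221 ± 65.7 for Fosb (n = 4). The order of Jun and Junb thus turned between groups, Jun being above Junb in all libraries of both N+P groups and below it in all of S+P C7. The full length of the Fos interval came only from the N+P C5 list (q-value 0.837), as did that of Fosb. The counts per kb of Fos and Fosb depend on these lengths.

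Fosl2 encodes FRA-2, a FOS relative without the strong activation domain of FOS. The intronic peak Fosl2 +13360, at chr5:32305693-32306440, had counts of 156, 131 and 131 in Naive, 57.5, 98.7 and 98.0 in N+P C1 and 102, 119 and 125 in N+P C5. There were 441, 378, 162 and 213 for Sensitized, 303, 245, 495 and 344 for S+P C4, 398, 389, 485 and 370.2 for S+P C5 and 461, 400.0, 439 and 460.2 for S+P C7. The lowest library of mice with a graft, Sensitized replicate 3, was above the highest of mice without one, and no group of the former overlapped a group of the latter. This was the strongest opening among the 29 in the C5 comparison (log2 fold change 1.83, SE 0.28, adjusted p = 1.4e-09), and it was also called in Sensitized vs. Naive (log2 fold change 1.10, SE 0.28, adjusted p = 0.000984). Without Sensitized replicate 1 the latter fell under the fold threshold (0.85, adjusted p = 0.0144), and without replicates 3 and 4 it was 1.56 with an adjusted p of 5.53e-10. In S+P C5 vs. Sensitized it differed by 0.46, with a 95% interval of -0.03 to 0.95, and without those replicates by 0.01 with an adjusted p of 0.993. The promoter peak Fosl2 +171 had 747, 733 and 893 counts in N+P C5 and 956, 1042, 1057 and 1048 in S+P C5, apart but close (log2 fold change 0.37, SE 0.16, adjusted p = 0.041). Fosl2 -1946 had an adjusted p above 0.1 in every comparison that gave it one, but a log2 fold change of -0.49 with an adjusted p of 0.0772 in S+P C7 vs. Sensitized without Sensitized replicates 3 and 4.

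Batf encodes a small AP-1 protein without an activation domain that CD8+ T cells need for effector differentiation. The upstream peak Batf -25540, at chr12:85707533-85708232, had counts of 197, 217 and 213 in Naive, 153, 126 and 177 in N+P C1 and 142, 156 and 179 in N+P C5. There were 315, 313, 205 and 212 for Sensitized, 319.8, 170.1, 164 and 143 for S+P C4, 404, 381, 346 and 263 for S+P C5 and 439, 340.5, 265 and 205 for S+P C7. All S+P C5 libraries were above all N+P C5 libraries, and the peak opened in that comparison (log2 fold change 1.13, SE 0.27, adjusted p = 0.000112). Unlike the Fosl2 and Junb peaks, it was low in S+P C4 outside replicate 1. S+P C5 vs. S+P C4 missed the fold threshold with all libraries (log2 fold change 0.85, SE 0.25, adjusted p = 0.00979) and passed it without S+P C4 replicate 1 or without S+P C5 replicate 4. It held TGANTCA at 2 positions, of which the TGACTCA printed above lies nearer to its middle. The promoter peak Batf +100 (log2 fold change 0.50, SE 0.12, adjusted p = 0.000204) and the intronic peak Batf +18905 (log2 fold change 0.62, SE 0.15, adjusted p = 0.000243) were higher in S+P C5 than in N+P C5 in all libraries, by less than the threshold. Batf -25540 was only in the peak list of S+P C5, and Batf +100 only in that of Sensitized.

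**Figure D4:**
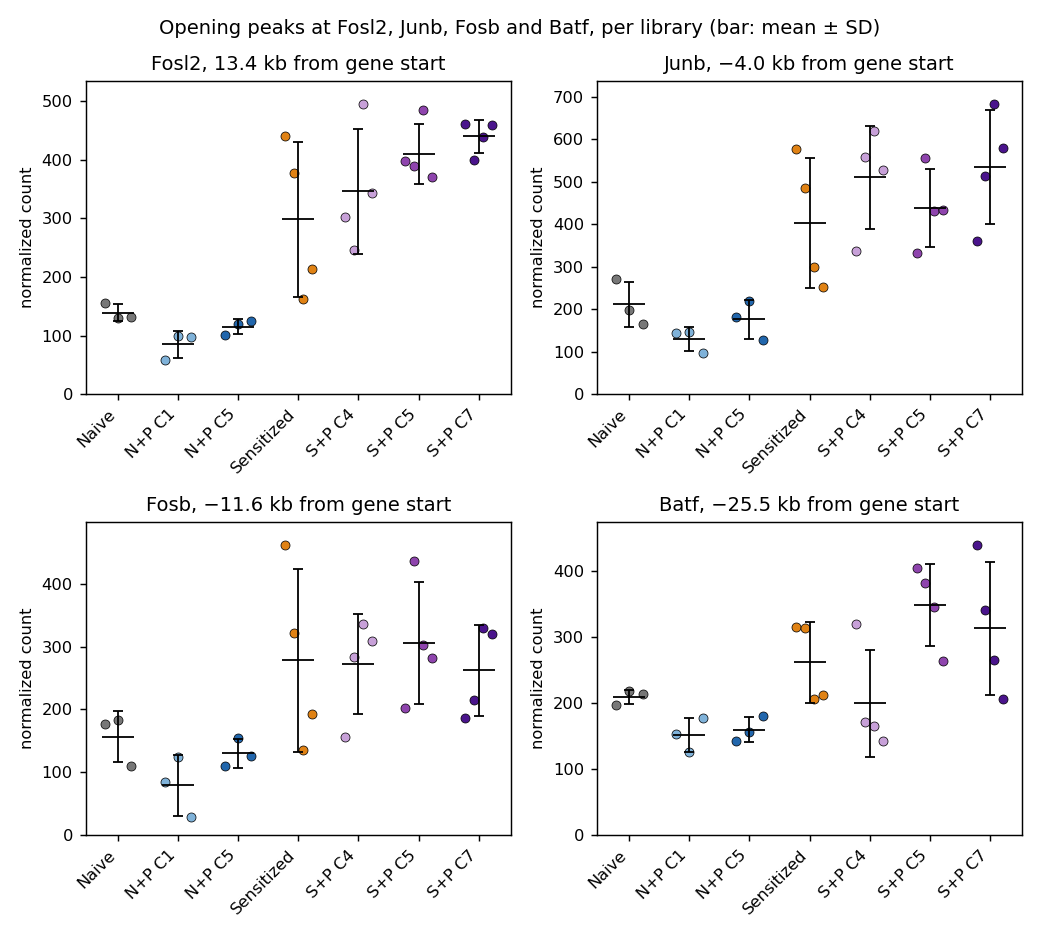
Normalized counts in each library (points) with the group mean and SD (bars, n = 3 or 4) of the 4 peaks that opened in the C5 comparison. S+P C5 libraries lie above N+P C5 libraries in each panel, and within Sensitized the points of replicates 1 and 2 lie above those of replicates 3 and 4. S+P C5 and N+P C5 did not overlap at 62.9% of all peaks.

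Atf3 encodes a stress-induced AP-1 protein that often represses as a homodimer. Its upstream peak Atf3 -41234, at chr1:190991218-190991732, had counts of 380.2, 366 and 469 in Naive, 432, 526 and 392 in N+P C1 and 463, 395 and 448 in N+P C5. There were 247, 309, 450.1 and 455 for Sensitized, 442, 251, 173 and 245 for S+P C4, 279, 185, 190.0 and 192 for S+P C5 and 202, 138, 141 and 147 for S+P C7. All S+P C5 and S+P C7 libraries were below all Naive and N+P libraries, and S+P C7 libraries were also below all Sensitized libraries. The peak closed in the C5 comparison (log2 fold change -1.03, SE 0.25, adjusted p = 0.000201) and in S+P C7 vs. Sensitized (log2 fold change -1.21, SE 0.24, adjusted p = 4.49e-06). The latter was -0.81 with an adjusted p of 0.0152, under the fold threshold, without Sensitized replicates 3 and 4. S+P C5 vs. Sensitized was inside the threshold (log2 fold change -0.78, SE 0.23, adjusted p = 0.00768) and passed it without Sensitized replicate 1 or S+P C5 replicate 1, while without Sensitized replicates 3 and 4 it was -0.38 with an adjusted p of 0.43.

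Peaks within the long Atf3 gene model went the other way in the C5 comparison. Atf3 +24065, in an intron and with 2 copies of TGANTCA, had counts of 397, 541 and 485 in N+P C5 and 753, 1041, 987 and 749 in S+P C5, which did not overlap. Its log2 fold change lay just under the threshold (log2 fold change 0.89, SE 0.20, adjusted p = 6.46e-05). It was called with total counts as size factors (0.95, adjusted p = 5.15e-06), with loess offsets and with the replicate number as a block. Naive libraries had 741, 671 and 582 at Atf3 +24065, above all N+P libraries. There N+P C1 vs. Naive gave log2 fold change -0.63, SE 0.22, adjusted p = 0.066. Atf3 +34222, a promoter peak at the starts of shorter Atf3 transcripts, had 339, 311 and 302 in N+P C5 and 425, 572, 644 and 566 in S+P C5 (log2 fold change 0.80, SE 0.23, adjusted p = 0.00202). Sensitized replicates 1 and 2 had 737 and 753 counts at this peak, above the counts of 389 and 439.9 in replicates 3 and 4. Atf3 -6667, the peak nearest the Atf3 start, did not pass an adjusted p of 0.1 in the C5 comparison (log2 fold change 0.08, SE 0.12, adjusted p = 0.541).

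Bach1 encodes a repressor that is released from its targets, such as the heme oxygenase gene, when heme binds it. The intronic peak Bach1 +27450, at chr16:87522618-87523845, had counts of 739.8, 658 and 893 in Naive, 877, 913 and 1038 in N+P C1 and 786, 862 and 985 in N+P C5. There were 136, 177, 745 and 769 for Sensitized, 708, 399.8, 198 and 289.7 for S+P C4, 231, 124, 88.3 and 138 for S+P C5 and 180.3, 64.7, 56.3 and 85.8 for S+P C7. All Naive and N+P libraries lay above all S+P C5 and S+P C7 libraries, whereas Sensitized and S+P C4 reached from one range to the other. The order of group means was N+P C1 (943 ± 84.5, SD, n = 3), N+P C5 (878 ± 100.4, n = 3), Naive (763 ± 119, n = 3), Sensitized (457 ± 347, n = 4), S+P C4 (399 ± 222, n = 4), S+P C5 (145 ± 60.8, n = 4) and S+P C7 (96.8 ± 57.0, n = 4). Neighbours in this order differed by less than the larger of their SDs, other than S+P C4 and S+P C5. For Naive and Sensitized the larger SD was the 347 of Sensitized.

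In the C5 comparison Bach1 +27450 closed further than any other of the 29 (log2 fold change -2.59, SE 0.54, adjusted p = 1.05e-05), and this held under each alternative tried. It also closed in S+P C5 vs. Sensitized (log2 fold change -1.65, SE 0.50, adjusted p = 0.0085) and in S+P C7 vs. Sensitized (log2 fold change -2.23, SE 0.50, adjusted p = 7.31e-05). These values turned on Sensitized replicates 3 and 4: without them the log2 fold changes were -0.10 with an adjusted p of 0.938 in S+P C5, and -0.68 with an adjusted p of 0.323 in S+P C7. Against Naive, the peak was then lower in Sensitized (-2.29 with an adjusted p of 2.83e-05), while with all 4 libraries that difference was log2 fold change -0.74, SE 0.54, adjusted p = 0.396. In S+P C5 vs. S+P C4 it closed (log2 fold change -1.45, SE 0.50, adjusted p = 0.0399) and lost the call without S+P C4 replicate 1 (-1.02, adjusted p = 0.276), without S+P C5 replicate 2 (-1.38, adjusted p = 0.128) or without S+P C5 replicate 3 (-1.27, adjusted p = 0.147). The interaction gave log2 fold change -1.85, SE 0.76, adjusted p = 0.0637, and -0.30 with an adjusted p of 0.812 without Sensitized replicates 3 and 4. That call was also lost without any 1 of Naive replicates 1 and 2, N+P C5 replicates 2 and 3, Sensitized replicates 3 and 4, and S+P C5 replicates 2 and 3, with adjusted p from 0.109 to 0.184.

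**Figure D5:**
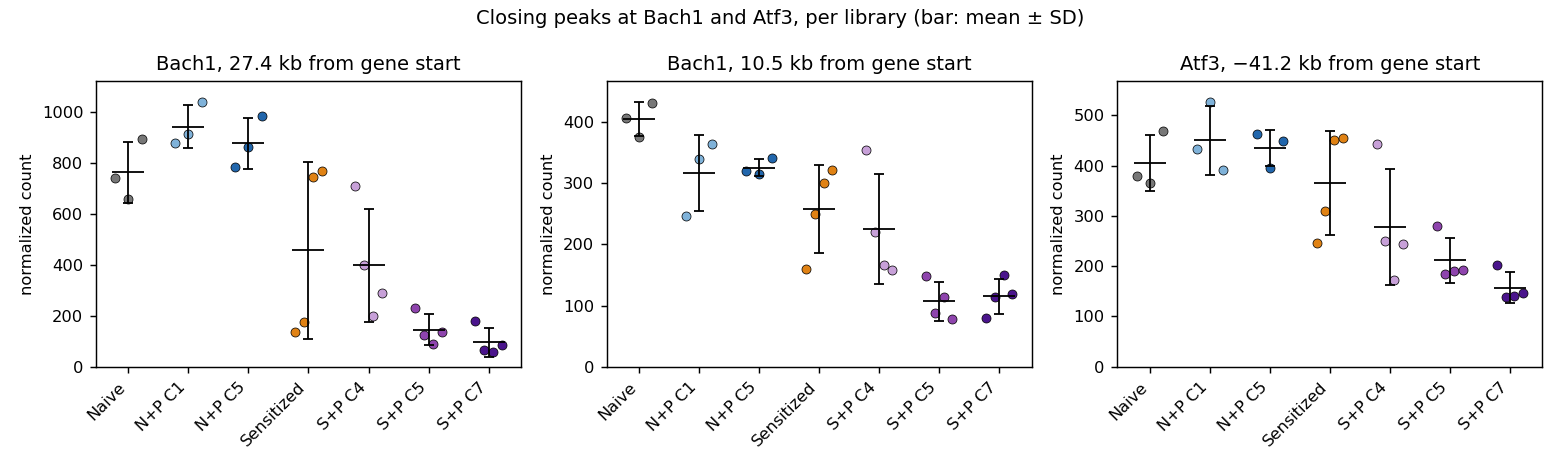
Normalized counts in each library (points) with the group mean and SD (bars, n = 3 or 4) of Bach1 +27450, Bach1 +10496 and Atf3 -41234. S+P C5 libraries lie below N+P C5 libraries in each panel, these groups being without overlap at 62.9% of all peaks. The 4 Sensitized points of Bach1 +27450 fall into 136 and 177 for replicates 1 and 2 and 745 and 769 for replicates 3 and 4.

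The second intronic peak, Bach1 +10496 at chr16:87506007-87506549, had counts of 406, 376 and 431 in Naive, 247, 339 and 364 in N+P C1 and 319, 315 and 341 in N+P C5. There were 160.4, 249, 300.4 and 321 for Sensitized, 354, 221, 167 and 158 for S+P C4, 149, 87.2, 114 and 78.4 for S+P C5 and 79.1, 114, 149 and 119.5 for S+P C7. All S+P C5 and S+P C7 libraries were below all libraries of every other group. The peak closed in the C5 comparison (log2 fold change -1.59, SE 0.28, adjusted p = 1.76e-07), in S+P C5 vs. Sensitized (log2 fold change -1.25, SE 0.26, adjusted p = 4.74e-05) and in S+P C7 vs. Sensitized (log2 fold change -1.17, SE 0.26, adjusted p = 6.59e-05). Without Sensitized replicates 3 and 4 it was still called in S+P C5 (-0.91 with an adjusted p of 0.0355) and not in S+P C7 (-0.83 with an adjusted p of 0.0356). It also closed in S+P C5 vs. S+P C4 (log2 fold change -1.02, SE 0.26, adjusted p = 0.00257), a call lost without S+P C4 replicate 1 (-0.74, adjusted p = 0.0432) or S+P C5 replicate 4 (-0.89, adjusted p = 0.021). The interaction gave log2 fold change -0.94, SE 0.39, adjusted p = 0.0686, and -0.59 with an adjusted p of 0.384 without Sensitized replicates 3 and 4. That call was also lost without any 1 of Naive replicates 1 and 2, N+P C5 replicates 2 and 3, Sensitized replicates 3 and 4, and S+P C5 replicates 2 and 4, with adjusted p from 0.109 to 0.168. This peak held none of the 4 strings and was only in the peak list of Naive.

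The promoter peak Bach1 +600, with its 4 TGAGTCA sites, had counts of 1828, 1916 and 1818 in N+P C5, 1302, 1667, 1680.4 and 1726 for Sensitized, 1262, 1166, 1253 and 1284 for S+P C5 and 1146, 1197, 1243 and 1206 for S+P C7. S+P C5 and S+P C7 libraries were below all libraries of N+P C5 and Sensitized, by less than the fold threshold. The log2 fold changes were -0.58 in the C5 comparison (SE 0.08, adjusted p = 5.79e-11) and -0.36 in S+P C5 vs. Sensitized (SE 0.08, adjusted p = 6.38e-05). Without Sensitized replicates 3 and 4 the latter was -0.25 with an adjusted p of 0.0487. Bach1 +56099, beyond the gene, had a log2 fold change of -0.75 in the C5 comparison (SE 0.26, adjusted p = 0.0109). Bach1 +14298 lies between the 2 closing intronic peaks and did not share their difference, with 0.24 in the C5 comparison and an interval of -0.04 to 0.51.

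Of all peaks outside the family, those whose counts were ordered most like Bach1 +10496 over the 25 libraries, by Spearman's rho, had Dph5, Cerk, Pmepa1, Wwox and Gm17455 as their nearest gene starts. The rho values ran from 0.945 to 0.954. This is a description only, since libraries of one mouse and one group are not independent, and the 5 peaks were picked among all the others as the most alike.

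Genes that act with the family were counted in the same way, in the C5 comparison, where 17.2% of all peaks were called. Of other bZIP genes that pair or compete with AP-1, 7 opened and 6 closed of 43 peaks at 16 of 18 genes, with a median log2 fold change of 0.15 (all peaks 0.0046). The 3 with the smallest adjusted p all opened. A peak 237283 bp from the start of Maf, a large MAF factor of exhausted and regulatory T cells, went from 8.12 ± 2.67 in N+P C5 to 306 ± 74.0 in S+P C5 (log2 fold change 5.23, SE 0.53, adjusted p = 4.73e-20). A peak 58860 bp from that of Bach2, the lymphocyte relative of Bach1 that restrains effector genes, went from 53.8 ± 2.09 in N+P C5 to 548 ± 66.8 in S+P C5 (log2 fold change 3.35, SE 0.34, adjusted p = 7.22e-20). A peak in a promoter of Nfil3, a bZIP repressor, opened from 37.5 ± 18.9 to 424 ± 87.5 (adjusted p = 2.26e-17).

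At the genes of the MAP kinase cascades to AP-1, which include the transcription factor genes Elk1, Elk4 and Srf, 5 peaks opened and 2 closed. There were 34 peaks at 18 of 19 genes, with a median of 0.0135. Intronic peaks of Map3k5 (log2 fold change 1.94, adjusted p = 7.85e-11) and Map2k3 (log2 fold change 1.72, adjusted p = 2.2e-07), both kinase genes of these cascades, opened. Of the phosphatases that switch MAP kinases off, 5 opened and 4 closed of 36 peaks at 7 of 7 genes, with a median of 0.0186. A pair of peaks assigned to Dusp1, whose product removes phosphate from MAP kinases, opened (log2 fold change 2.62, adjusted p = 2.57e-11, and log2 fold change 1.23, adjusted p = 3.62e-10). Their assignment rests on a long Dusp1 gene model that reaches over the start of the neighbour Ergic1. Opening was also seen at a peak 67577 bp from the start of Dusp5 (log2 fold change 1.69, adjusted p = 1.03e-07). Of partners and known targets of AP-1, 5 opened and 1 closed of 18 peaks at 6 of 8 genes, with a median of -0.0166. Both a peak 5472 bp from the start of Ifng, the interferon-gamma gene, and the Ifng promoter peak opened, the first from 48.3 ± 12.2 in N+P C5 to 579 ± 69.6 in S+P C5 (log2 fold change 3.58, SE 0.43, adjusted p = 1.19e-14) and the second from 137 ± 7.07 in N+P C5 to 649 ± 64.1 in S+P C5 (log2 fold change 2.24, SE 0.32, adjusted p = 5.71e-11). A further peak whose nearest gene start was that of Ifng, at 192701 bp, closed in S+P C7 vs. Sensitized (log2 fold change -2.10, adjusted p = 4.2e-13), and without Sensitized replicates 3 and 4 its log2 fold change was -1.70 with an adjusted p of 1.1e-06.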

How the data were processed

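The authors trimmed reads with cutadapt 3.4, aligned them to GRCm39 with Bowtie2 2.2.9, removed duplicates with Picard 2.21.8, called peaks per library with Genrich 0.6.1 and kept recurring peaks per group with ChIP-R. The deposited table holds raw read counts per merged peak (13527 peaks, 25 libraries, totals 2430890 to 25419715). The deposited lists give a q-value (p-value scale) per peak and pool the libraries of a group. No column was left unmapped.

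Peaks were assigned by midpoint with GENCODE vM39. DESeq2 1.42.0 (R 4.3.3) was fitted once to all peaks and libraries with group as the only term. Its p-values were adjusted by Benjamini-Hochberg over the peaks kept by its independent filter. These were all peaks except in N+P C1 vs. Naive and N+P C5 vs. Naive. A call needs a log2 fold change (unshrunken) beyond 0.9 in either direction with an adjusted p below 0.1, as in the study's methods. Normalized counts are counts over size factors. Alternatives were edgeR 4.0.16 (quasi-likelihood, TMM), total counts, loess offsets, a filter of 10 counts in 3 libraries, other thresholds, fewer libraries and blocks. The script was tested on simulated data.

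Subsets of N+P and of S+P mice were sorted from individual mice and share replicate numbers, which pair them. Deviations correlated between same-numbered libraries at 0.108 to 0.4 for N+P C1 with C5, 0.103 to 0.572 for S+P C4 with C5, 0.0639 to 0.666 for C4 with C7 and 0.522 to 0.771 for C5 with C7. Another number correlated higher for numbers 2 and 3 of C4 with C5 and number 2 of C4 with C7. The animal as a block changed no count of calls. The labels do not say whether Naive and Sensitized replicates are separate mice beyond their numbers, so p-values measure the spread between libraries. Named were the peak nearest each gene start, each called member peak and up to 3 called peaks per pathway list, of which 1 is not reported here. Members and lists were chosen with earlier results of these data known.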

Additional observations from a re-analysis of the deposited data

Results flagged for a closer look

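Among the named peaks, 60 groups of 4 libraries were tested for a library far from the other 3 by Dixon's ratio, and 5 were marked, where chance marks about 1 in 20 groups. S+P C5 replicate 1 was low at Fosl2 +171 (956 against 1042 to 1057) and high at Atf3 -41234 (279 against 185 to 192), in normalized counts. S+P C7 replicate 1 was also high at Atf3 -41234 (202 against 138 to 147), and both libraries come from the same mouse number. Sensitized replicate 1 was low at the promoter peak Bach1 +600 (1302 against 1667 to 1726). S+P C4 replicate 1, the shallowest library, was high at Batf -25540 (319.8 against 143 to 170.1).

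In the interaction test of DESeq2, 2 of the 29 peaks passed both the fold threshold and an adjusted p of 0.1, beside 5.97% of all peaks, and 8 passed the adjusted p alone, 1 higher and 7 lower, beside 31.2% of all peaks. Without Sensitized replicates 3 and 4 only Bach1 +600 passed the adjusted p, beside 6.50% of all peaks. The difference of log2 fold changes was -1.85 at Bach1 +27450 (adjusted p = 0.0637) and -0.94 at Bach1 +10496 (adjusted p = 0.0686). Sensitized replicates 3 and 4 moved with both values, which were -0.30 and -0.59 without them. Each call was also lost when any 1 of 8 single libraries was left out.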

How the results depend on the processing

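Counts of called member peaks by edgeR's quasi-likelihood test, by the low-count filter and by transcript starts in place of gene starts equalled those of DESeq2 in all 11 comparisons. The low-count filter left out no peak. Leaving out 1 library at a time gave 0 to 3 calls in Sensitized vs. Naive, 0 to 2 in N+P C1 vs. Naive, 0 to 1 in N+P C5 vs. Naive, 2 to 3 in S+P C5 vs. Sensitized, 3 to 4 in S+P C7 vs. Sensitized, 7 to 9 for S+P C5 against N+P C5, 1 to 2 in S+P C5 vs. S+P C4 and 0 to 6 in the interaction. Without both Sensitized libraries nearest to N+P C5, an alternative chosen after seeing the data, there were 6 calls in Sensitized vs. Naive, 1 in S+P C4 vs. Sensitized, 1 in S+P C5 vs. Sensitized, 0 in S+P C7 vs. Sensitized and 0 in the interaction. The interaction had 0 calls at an adjusted p under 0.05 and 1 with total counts as size factors, and a fit of only the groups compared gave 1 call in N+P C1 vs. Naive. With the replicate number as a block, S+P C5 against N+P C5 had 8 calls and the interaction 3, and with the animal as a block the 3 comparisons within mice had 0, 2 and 0. Loess offsets gave 9 calls for S+P C5 against N+P C5, 5 opening and 4 closing, and 3 in the interaction. Of 302 values of the 18 called pairs of peak and comparison under alternatives, 267 kept direction and call, 35 kept direction only and none turned. The cause of these changes was not tested. Depth limits S+P C4 replicate 1 most.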

Other observations

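The Jun and Fosb genes are both immediate-early genes, and their broad peaks were read side by side in single libraries. Naive replicate 3 had the highest Naive count at both, 5959 over Jun and 2946 over Fosb. Sensitized replicates 3 and 4 were likewise above replicates 1 and 2 at both, and in S+P C5 replicate 4 was highest at both, with 4432 and 3917. In N+P C5 they differed, Jun being highest in replicate 1 (6663) and Fosb in replicate 2 (4309). The broad peak over Fos went with Jun and Fosb in Naive, Sensitized and S+P C5. That over Junb did not: Naive replicate 3 was its lowest Naive library (4064). Its highest were replicate 1 in Sensitized (4697) and replicate 2 in S+P C5 (5199). Naive replicate 3 and Sensitized replicates 3 and 4 were also nearest to N+P groups over all peaks, and the part of this in the values was not tested.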
